A study of Mus musculus with 4 samples.

Results

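The serine/threonine protein phosphatase subunit genes were taken as the protein-coding genes of the RefSeq GRCm38.p6 annotation whose symbol is Ppp followed by a digit from 1 to 6. The rule found 77 genes among 21900 coding genes, and a gene was counted as carrying a MOV10 peak when the midpoint of a peak lay inside its annotated span. MOV10 is an RNA helicase that works with Argonaute proteins on mRNAs. Its RNA contacts were mapped by eCLIP, in which protein is crosslinked to RNA, immunoprecipitated, and its RNA fragments sequenced beside an input, in N2A, a mouse neuroblastoma line that the labels call neurocarcinoma. The study comprised 2 MOV10 immunoprecipitates from an antibody of Bethyl Laboratories and 2 inputs, all from N2A cells grown in DMEM with serum and frozen as pellets, and the labels name no treatment or genotype beyond this. The values analysed were those of 1 list of 12236 peaks that combines both replicates.

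Phosphatases of this family remove phosphate from serine and threonine and work as complexes. A few catalytic subunits, those of PP1, PP2A, PP3 (calcineurin), PP4, PP5 and PP6, are shared among many regulatory subunits, which choose the substrate and the place in the cell. In neurons PP1 and calcineurin act at synapses on receptors and on the actin of dendritic spines, and PP2A acts on the microtubule protein tau. PP1 bound to Ppp1r15a or Ppp1r15b removes the phosphate from the translation factor eIF2α. The Ppp1r names cover a mixed set of proteins that bind PP1, several of which do more than regulate it.

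Each peak had 2 values of the authors'. The first was read as a −log10 p and the second as the log2 of the enrichment in the immunoprecipitates relative to the inputs. Both begin just above 3 in the list, so weaker binding is not represented and a gene without a peak was not thereby shown to be unbound. Each peak has 1 value over all libraries, so no spread between replicates can be given, no difference below was tested, and the depth of the libraries and the reads behind a peak are unknown. Expression in N2A cells was not measured here, so a gene without a peak may also be one that the cells do not transcribe, and the labelled cell type could not be checked against its markers.

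MOV10 peaks were found in 19 of the 77 phosphatase subunit genes (24.7%), against 1868 of all 21900 coding genes (8.53%). The 19 genes had 72 peaks in all, which is 0.603% of those in coding genes. By enzyme, peaks lay in 8 of 45 PP1 genes, 4 of 16 PP2A genes, 3 of 5 calcineurin genes, 2 of 6 PP4 genes and 2 of 4 PP6 genes, while Ppp5c, the only PP5 gene, had 0. The median gene span was 15.7 kb for PP1, 39.6 kb for PP2A, 47.2 kb for calcineurin, 46.1 kb for PP4 and 53.8 kb for PP6. These counts were not matched for span, so they do not show a difference between enzymes. Of the 12 catalytic subunit genes 5 carried peaks, and of the 65 regulatory and scaffold genes 14 did. The enrichment was mostly near the floor of the list. The median log2 fold enrichment of the peaks was 3.46 (interquartile range 3.23 to 3.81) in the phosphatase genes and 3.70 (3.34 to 4.19) in all coding genes. The strongest peak of a gene had a median of 3.46 in the phosphatase genes with a peak, against 3.84 in all coding genes with a peak. The median number of peaks in these genes was 2 and 3. A gene with more peaks has more values from which the strongest is taken, and this comparison was not matched for their number.

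**Figure D1:**
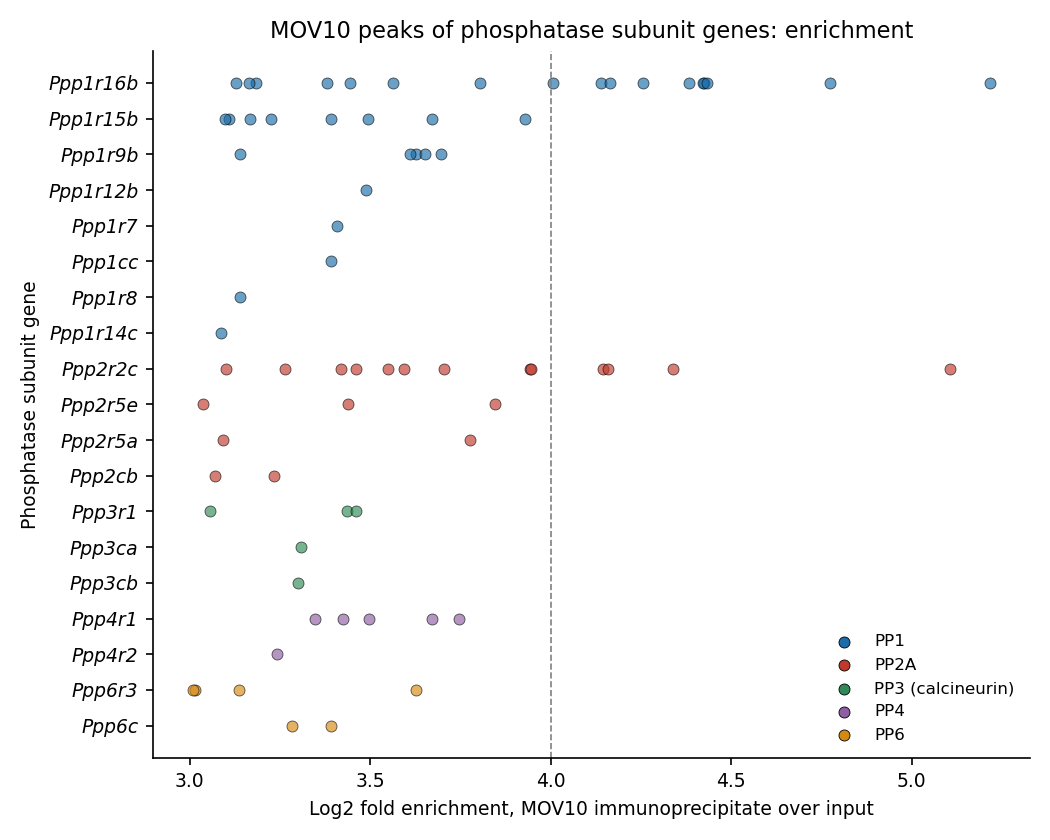
Each point is 1 MOV10 peak; the x axis gives its log2 fold enrichment, MOV10 immunoprecipitates relative to inputs, and the y axis the phosphatase subunit gene that holds it, with genes grouped and coloured by enzyme. The points right of the dashed line at 4 all belong to Ppp1r16b and Ppp2r2c, and the other phosphatase genes have peaks only between 3 and that line.

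At a stricter limit the picture was different. Peaks that reached 4 on the log2 scale were present in 2 phosphatase genes (2.6%), Ppp1r16b and Ppp2r2c, against 786 coding genes (3.59%), a share near that of all genes. With a −log10 p of at least 5, 12 phosphatase genes (15.6%) kept a peak, against 1466 coding genes (6.69%). The same 2 genes were the only phosphatase genes with 10 or more peaks (2.6%), against 400 of all coding genes (1.83%). Ppp1r16b, Ppp2r2c and Ppp1r15b together held 38 of the 72 peaks (52.8%). These counts take touching peaks separately. With touching peaks merged, the 3 genes had 12, 9 and 4 of 55 intervals, so only Ppp1r16b kept 10 or more. The share of all coding genes with 10 or more merged intervals is not given here. The other 16 genes held 1 to 5 peaks each, with a log2 fold enrichment between 3.01 and 3.85.

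Genes with a peak were longer in annotated span. The 19 phosphatase genes with a peak had a median span of 45.1 kb, against 21.2 kb in the 58 without. Among all coding genes the medians were 42.3 kb with a peak and 15.6 kb without. In genes of at least 15 kb a peak was present in 18 of 53 phosphatase genes (34%), against 1550 of 11784 coding genes (13.2%). Below 15 kb it was present in 1 of 24 (4.17%), the gene Ppp1r15b, against 318 of 10116 (3.14%). In the 4 longer classes the share in phosphatase genes was 25% at 15 to 30 kb, 37.5% at 30 to 60 kb, 33.3% at 60 to 120 kb and 50% from 120 kb, each from 8 to 20 genes. The shares in all coding genes were 8.77%, 13.7%, 18.6% and 15.7% in the same order.

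**Figure D2:**
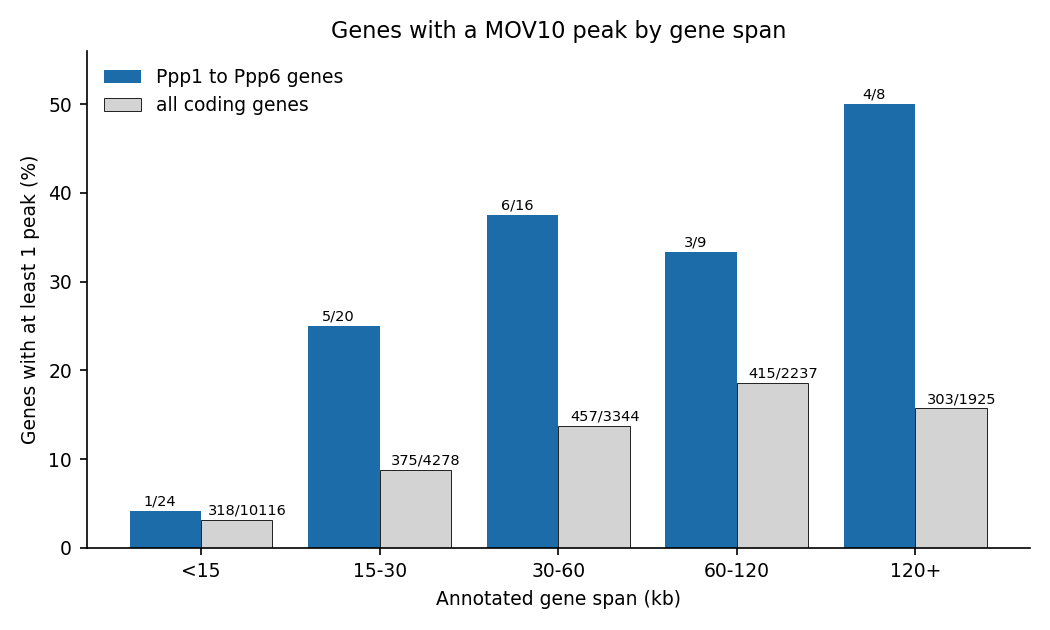
Bars give the percent of genes with at least 1 MOV10 peak by class of annotated gene span in kb, with the Ppp1 to Ppp6 genes on the left of each pair and all coding genes on the right; the fraction above each bar is genes with a peak over genes in the class. In the class under 15 kb the bars stand at 4.17% and 3.14%, and in the 4 longer classes the phosphatase bar is the higher of the pair, on few genes.

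Along the gene, the peaks were placed towards the 3′ end. In the 18 genes of at least 15 kb, 62 of 64 midpoints (96.9%) fell in the last 5 kb of the gene span, against 85.9% in all coding genes, and 38 (59.4%) lay within 1 kb, against 32.3%. A peak inside several coding genes is counted in each at a different distance. The same peaks lay 103.5 to 363 nt from the end of Ccna2 and 12362.5 to 12622 nt from that of Exosc9. In genes of any span, 1059 of 12247 assignments in all coding genes were to peaks in several gene spans, against 2 of 72 in phosphatase genes. The shares without them were not computed. The median midpoint was 857.75 nt from the 3′ end in the phosphatase genes and 1615.25 nt in all coding genes. Genes with many peaks weigh most in these medians. With only the strongest peak of each gene they were closer, at 812.25 nt and 1051.75 nt. That peak lay within 1 kb in 12 of 18 phosphatase genes and in 743 of 1550 coding genes. Peaks within 5 kb of the 5′ end were rare in both, 0 of 64 in phosphatase genes and 43 of 10866 in all coding genes. Of the 19 genes, 15 had a peak in the last 1 kb, and 9 had all of their peaks there. Of these 9, Ppp1cc, Ppp1r7, Ppp1r8, Ppp3ca and Ppp3cb had a single peak, so for them both counts say the same. Genes with a single peak made up 42.1% of phosphatase genes with a peak, against 29.2% of coding genes with a peak. Neither count was made for all coding genes, so the counts cannot show a difference from them. The 4 genes with no peak in the last 1 kb were Ppp1r14c, whose single peak lay 1113 nt from the end, Ppp1r12b, whose single peak lay 5065 nt away, Ppp2r5e, whose 3 peaks lay 2385.5 to 3657.5 nt away, and Ppp4r2, whose single peak lay 3191.5 nt away. Ppp4r1 had 4 peaks in its last 1 kb and its remaining peak at 6863 nt. Neighbouring peaks of a gene share its transcript and are not independent. The annotation used gave no exons, so the positions are distances to the end of the gene span.

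**Figure D3:**
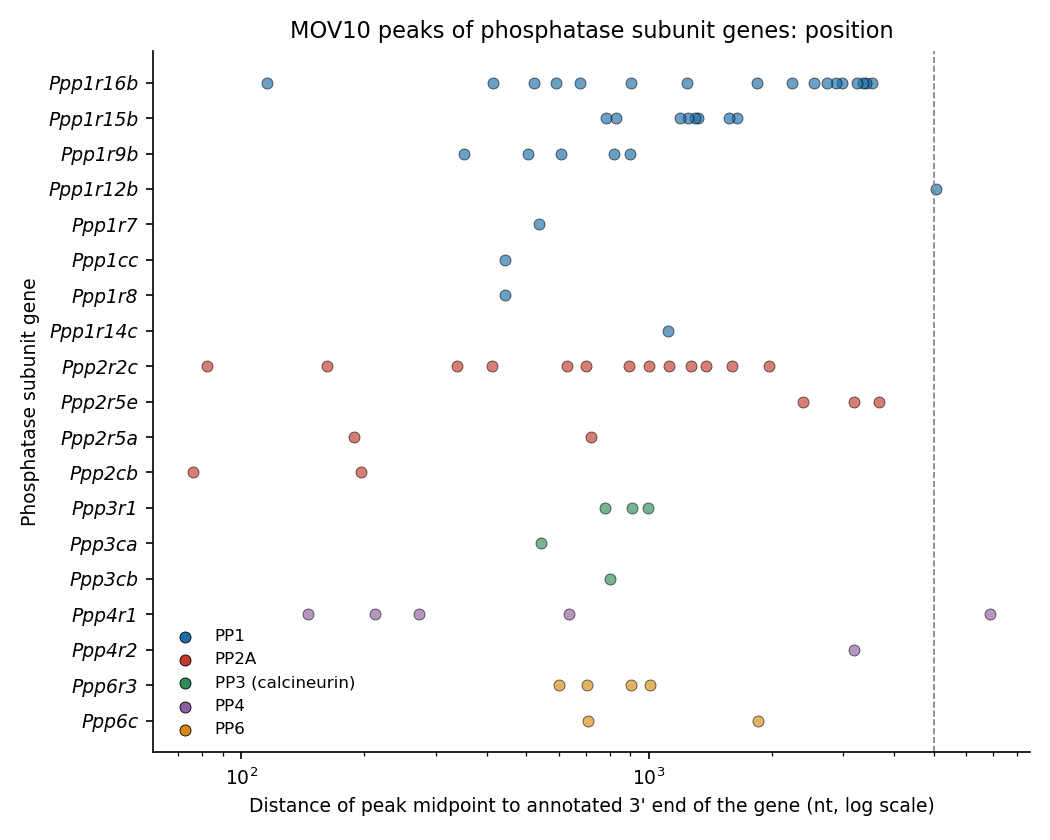
Each point is 1 MOV10 peak; the x axis, on a log scale, gives the distance in nt of its midpoint to the annotated 3′ end of the gene, and the y axis the phosphatase subunit gene, coloured by enzyme. The dashed line marks 5 kb, past which lie the peak of Ppp1r12b at 5065 nt and 1 peak of Ppp4r1 at 6863 nt.

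Among the catalytic subunits, peaks were few and close to the lowest value listed. Ppp1cc, the γ isoform of the PP1 catalytic subunit, had 1 peak on chromosome 5 (122174751 to 122174906, plus strand, GRCm38) with a log2 fold enrichment of 3.39 and a significance (−log10 p) of 5.39, 444.5 nt from the 3′ end. The other PP1 catalytic genes Ppp1ca and Ppp1cb, and Ppp1ccb, a short gene that RefSeq also lists under the name Ppp1cc, had 0. How reads common to such close copies were counted is not known here. For PP2A, Ppp2cb, the β catalytic isoform, had 2 touching peaks on chromosome 8 (33619540 to 33619675 and 33619676 to 33619780) at 3.23 and 3.07, with −log10 p of 9.26 and 9.32. Both lay on the plus strand and also inside the span of the neighbouring gene Ubxn8. The gene table used here gave no direction for either gene, so the strand could not be used here to assign these peaks to 1 of them. Distances for Ppp2cb take its direction from the strand of these peaks. Counting only peaks with their midpoint in a single gene leaves 18 phosphatase genes (23.4%), against 1686 coding genes (7.7%).

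Ppp2ca, the α catalytic isoform of PP2A, had 0 peaks inside its span, yet a peak on its strand stood just beyond it. That peak, on chromosome 11 (52123240 to 52123273), lay 507.5 nt past the annotated 3′ end in no gene, and its log2 fold enrichment was 3.39 (−log10 p 4.34). The calcineurin catalytic genes Ppp3ca and Ppp3cb had 1 peak each, at 3.31 and 3.30, lying 542.5 and 804 nt from the 3′ end, and differed more in −log10 p, with 4.90 for Ppp3ca and 10.9 for Ppp3cb. Ppp3cc, the third calcineurin catalytic gene, had 0. Ppp6c, the PP6 catalytic gene, had 2 peaks at 3.39 and 3.28, placed 1851.5 and 709 nt from the end. Ppp4c and Ppp5c, the catalytic genes of PP4 and PP5, had 0. The 5 catalytic genes with a peak thus had strongest values between 3.23 and 3.39, all below the median of 3.84 for coding genes with a peak. They had only 1 or 2 peaks each, against a median of 3 in those coding genes, and the comparison was not matched for this.

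PP1 regulatory genes held the most peaks, 34 in 7 of 41 genes, and most of these lay in Ppp1r16b and Ppp1r15b. Ppp1r16b encodes TIMAP, a membrane-associated PP1 subunit with ankyrin repeats. It carried 17 peaks on chromosome 2 (gene span 158666733 to 158766334, plus strand), more than any other phosphatase gene, and ranked 117th by strongest peak and 160th by number of peaks among the 1868 coding genes with a peak. The strongest peak (158763506 to 158763680) had a log2 fold enrichment of 5.22 (37.2-fold, −log10 p 15.1) and lay 2741 nt from the 3′ end. Its peaks were spread from 3517 to 115.5 nt before that end, 9 of them beyond 2 kb and 6 within the last 1 kb, with 2 between. Log2 fold enrichment ranged from 3.13 to 5.22 with a median of 4.14, and 10 of the 17 peaks reached at least 4. The peak ranked second, at 158763763 to 158763810, had 4.77 with a −log10 p of only 4.52. Close to the end of the gene a second group of peaks reached 4.43 at 414 nt and 4.38 at 115.5 nt. Its peaks merged into 12 intervals covering 1575 nt, or 44.3% of the stretch from the first peak to the gene end.

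Ppp1r15b encodes CReP, the constitutively made PP1 subunit that directs the enzyme to eIF2α. Its 8 peaks on chromosome 1 (gene span 133131166 to 133139800) were spread from 1642.5 to 783.5 nt before the 3′ end of a gene of 8.63 kb. They merged into 4 intervals, the widest of which, 144 nt, held 4 touching peaks. Within it the shortest peak (133138473 to 133138488, 16 nt) had the highest log2 fold enrichment of the gene, 3.93, and a peak of 84 nt (133138513 to 133138596) the highest −log10 p, 20.03, with a log2 fold enrichment of 3.11. Ppp1r15a, encoding the stress-induced partner GADD34, had 0 peaks.

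**Figure D4:**
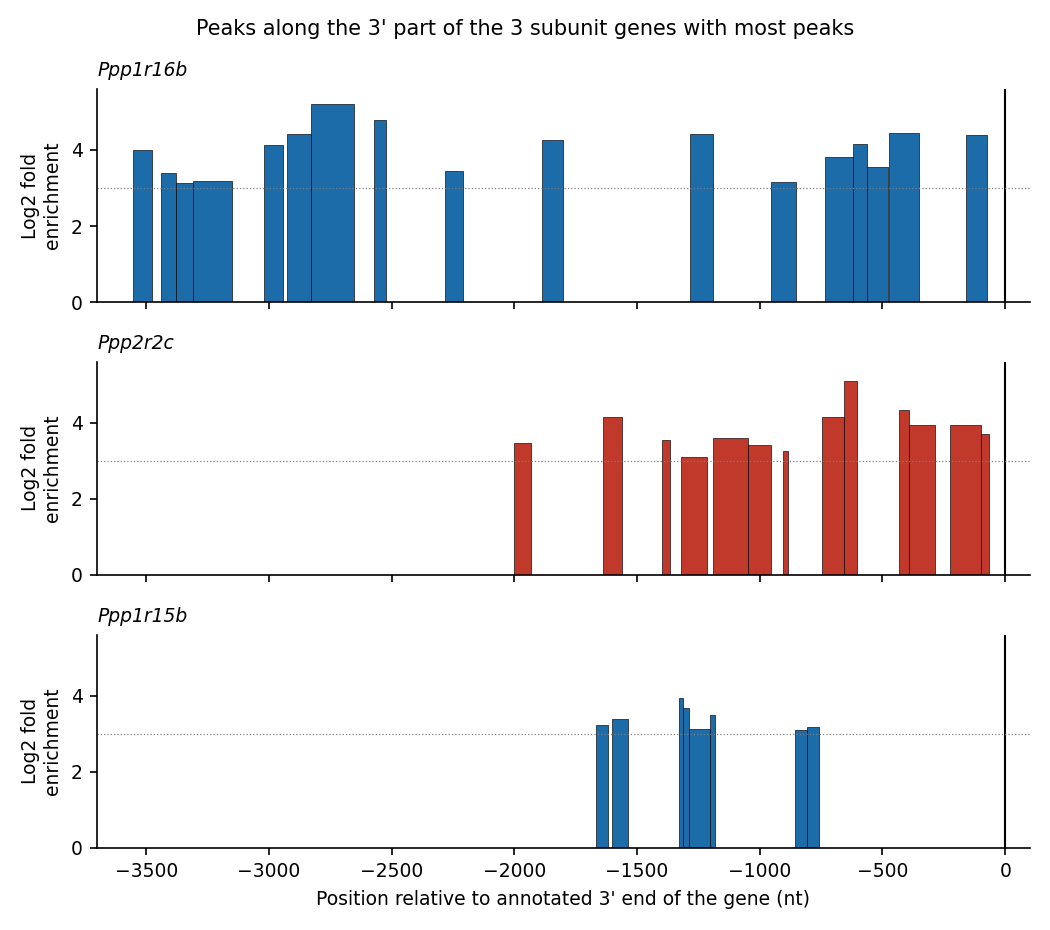
Bars show each MOV10 peak of Ppp1r16b, Ppp2r2c and Ppp1r15b; the x axis gives position in nt relative to the annotated 3′ end of the gene at 0, bar width is the width of the peak, and height is its log2 fold enrichment, with a dotted line at 3, near the lowest value listed. Ppp1r16b peaks extend 3517 nt back from the end and reach 5.22, Ppp2r2c peaks are spread over the last 2 kb and reach 5.11, and Ppp1r15b peaks stop 783.5 nt before the end and stay under 4.

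The remaining PP1 regulatory genes had lower values. Ppp1r9b encodes spinophilin, which holds PP1 at dendritic spines, and had 5 peaks on chromosome 11 (95005952 to 95006559) between 352 and 898.5 nt from the 3′ end. Of these, 4 lay within a narrow band of log2 fold enrichment, 3.61 to 3.70, and the nearest to the gene end had 3.14. Its close relative Ppp1r9a, encoding neurabin, had 0. Single peaks were found in Ppp1r12b, a myosin phosphatase targeting subunit (3.49, −log10 p 3.19), Ppp1r7, the SDS22 subunit (3.41, −log10 p 3.93), Ppp1r8, the nuclear inhibitor NIPP1 (3.14, −log10 p 4.98), and Ppp1r14c, the inhibitor KEPI (3.09, −log10 p 3.01). Ppp1r7 had a further peak in no gene, 3246.5 nt past its annotated end on the same strand, at 3.39. Families without any peak included the 7 glycogen-targeting Ppp1r3 genes, the 3 inhibitor genes Ppp1r1a, Ppp1r1b (DARPP-32) and Ppp1r1c, and the 2 Ppp1r13 genes, which encode ASPP proteins. The Ppp1r3 and Ppp1r1 genes had median spans of 11.6 and 9.39 kb. Of all coding genes 8.53% had a peak, and 3.14% of those under 15 kb. A lack of peaks in so few genes therefore does not set these families apart. Ppp1r10, encoding the nuclear subunit PNUTS, Ppp1r2, encoding inhibitor-2, and Ppp1r16a also had 0. In the Ppp1r12 and Ppp1r14 families 1 gene of 3 and 1 of 5 had a peak.

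Among PP2A regulatory and scaffold genes the peaks lay in 3 of 14, and 13 of 18 were in Ppp2r2c. This gene encodes the γ form of the B (PR55) subunit, which is made chiefly in brain. Its 13 peaks on chromosome 5 (gene span 36866846 to 36955078, plus strand) were spread from 1966.5 to 82.5 nt before the 3′ end, 7 of them in the last 1 kb. The strongest (36954422 to 36954474) had a log2 fold enrichment of 5.11 (34.4-fold, −log10 p 8.70) at 630 nt from the end. The peak with the highest −log10 p, 20.7, was another (36954853 to 36954978), with a log2 fold enrichment of 3.94 at 162.5 nt from the end. Its median was 3.70, and 4 of its peaks reached at least 4. Merged, its peaks made 9 intervals covering 998 nt, or 49.9% of the last 2000 nt of the gene. It ranked 137th by strongest peak among coding genes with a peak. The other B subunit genes, Ppp2r2a, Ppp2r2b and Ppp2r2d, had 0 peaks.

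The B′ (B56) subunits of PP2A were represented by 2 of 5 genes. Ppp2r5e, the ε form on chromosome 12 (strongest peak 75451771 to 75451926), had 3 peaks at 3.85, 3.44 and 3.04, in order of distance from the 3′ end, with −log10 p of 3.22, 3.38 and 4.30, so the strongest enrichment had the lowest −log10 p. Ppp2r5a, the α form on chromosome 1 (strongest peak 191352130 to 191352210), showed the same inversion, with 3.78 and a −log10 p of 5.01 at 189 nt from the end, and 3.09 and a −log10 p of 9.10 at 720.5 nt. Ppp2r5b, Ppp2r5c and Ppp2r5d had 0, as did both scaffold genes Ppp2r1a and Ppp2r1b and the 3 B″ genes Ppp2r3a, Ppp2r3c and Ppp2r3d. In the 11 phosphatase genes with 2 or more peaks, the peak of highest enrichment was also that of highest −log10 p in 2. The same count was not made for all coding genes, so it cannot be called particular to phosphatase genes.

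In the regulatory genes of calcineurin, PP4 and PP6 the strongest peaks lay between 3.24 and 3.75. This is below the median of 3.84 for coding genes with a peak, in a comparison not matched for the number of peaks. Ppp3r1, the calcium-binding B subunit of calcineurin, had 3 peaks on chromosome 11 (17199353 to 17199665) at 3.44, 3.46 and 3.06, within 780.5 to 995 nt of the 3′ end. Their −log10 p were 15.1, 16.6 and 21.1, the last being the highest of any phosphatase peak. Ppp3r2, the testis form, had 0. Ppp4r1, a PP4 regulatory subunit on chromosome 17 (gene span 65782543 to 65841926), had 5 peaks with a log2 fold enrichment of 3.35 to 3.75. The strongest (65841609 to 65841697) had a −log10 p of 4.14 and lay 273 nt from the 3′ end, and the highest −log10 p, 7.98, belonged to a peak of 3.67 at 635 nt. The peak at 6863 nt was the lowest of the gene in both values, 3.35 with a −log10 p of 3.39. Ppp4r2 had 1 peak at 3.24. Ppp4r3a, Ppp4r3b and Ppp4r4 had 0. Ppp6r3, a PP6 subunit of the SAPS family on chromosome 19, had 4 peaks placed 603 to 1007.5 nt before the 3′ end. They reached 3.63, and the lowest was 3.01, the lowest phosphatase value, at the peak farthest from the end. Ppp6r1 and Ppp6r2 had 0. PP1, calcineurin and PP6 thus had both catalytic and regulatory genes with peaks, and PP4 had regulatory genes alone. For PP2A this holds only if the peaks shared with Ubxn8 are counted for Ppp2cb.

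**Figure D5:**
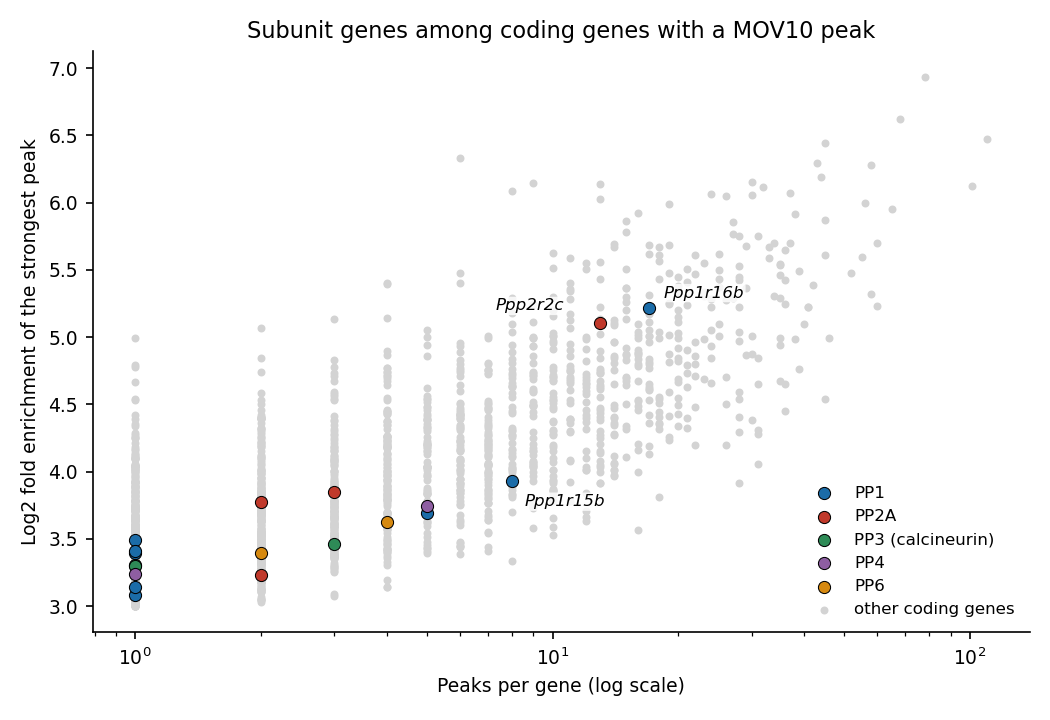
Each point is 1 coding gene with a MOV10 peak; the x axis, on a log scale, gives its number of peaks and the y axis the log2 fold enrichment of its strongest peak, with phosphatase subunit genes coloured by enzyme and other coding genes in grey. Ppp1r16b, with 17 peaks and 5.22, and Ppp2r2c, with 13 and 5.11, stand apart from the other 17 phosphatase genes, all of which lie below 4.

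Genes of related phosphatases and partners outside the Ppp names were looked at beside them. Of 101 annotated genes in 7 lists, 27 had a peak (26.7%), against 8.53% of all coding genes. The spans of the listed genes were not taken into account, and the lists were chosen with earlier results of these data known. The ankyrin subunits of PP6 had peaks in 2 of 3 genes. Ankrd52 led with 35 peaks, the strongest at 4.94 and the highest −log10 p at 75.2, all within 36 to 2890 nt of the 3′ end, while Ankrd28 had 4 peaks up to 4.13. Both exceeded the strongest peaks of Ppp6c, 3.39, and Ppp6r3, 3.63. The PPM family, metal-dependent serine/threonine phosphatases unrelated in sequence, had peaks in 5 of 19 genes, led by Ppm1l (4.85, 20 peaks), Ppm1h (4.69, 4 peaks), Ppm1f (4.24, 2 peaks) and Ppm1a (4.03, 2 peaks).

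Modulators of PP2A had peaks in 3 of 15 genes. Set, an inhibitor of PP2A, had 6 peaks up to 4.51, Anp32a, another inhibitor, 4 up to 3.94, and Ptpa, the PP2A activator, 6 up to 3.91. In the STRIPAK complex, where striatins serve as PP2A subunits, 5 of 16 genes had peaks, among them Strn (4.28, 10 peaks), Cttnbp2nl (4.04, 5 peaks), Stk24 (3.65, 1 peak) and Strn4 (3.24, 1 peak). Regulators and targets of calcineurin had peaks in 4 of 14. They were Chp1, a calcineurin B homologue (4.81, 9 peaks), the inhibitor gene Rcan3 (4.14, 8 peaks), the transcription factor gene Nfatc3 (4.01, 12 peaks) and the CREB coactivator gene Crtc1 (3.73, 3 peaks). Among proteins linked to PP1 under other names, 8 of 32 genes had peaks, led by Phactr2 (4.53, 3 peaks), Shoc2 (4.18, 4 peaks), Bod1 (3.77, 3 peaks), better known as an inhibitor of PP2A with B56, and Sh3glb1 (3.69, 2 peaks). Ppef1 and Ppef2, further phosphatases of the PPP family, had 0.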

How the data were processed

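MOV10 eCLIP was done in N2A cells with 2 immunoprecipitates and 2 inputs, and nothing in the labels says whether replicates were separate cultures. The authors deposited 1 headerless peak list, whose name marks it as IP versus input with IDR (irreproducible discovery rate) filtering. Builds mm10 and GRCm38.p6 are given per the submitters' processing notes. No aligner, caller, threshold or method of combining replicates is named in the labels or the file. The −log10 p and the log2 fold enrichment, as deposited by the authors, were identified from their ranges and the usual order of eCLIP columns, and are the peak's own values.

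Starts were converted to count from 1. Peaks were assigned to every RefSeq gene span that holds their midpoint, so a peak in several coding genes counts in each. Gene direction came from the strand in the RefSeq promoter table for 14 of the 19 phosphatase genes with peaks, and from the peaks' strand for Ppp1r15b, Ppp2cb, Ppp2r5e, Ppp3ca and Ppp4r1. Where the table gave a direction, 99.9% of single-gene peaks in coding genes lay on that strand. Assignment and merging were tested on simulated data. Python 3.11.15, pandas 2.3.3 and scipy 1.17.1 were used. The members, gene lists and alternatives were chosen with earlier results of these data known, so no test was run over them. Every phosphatase gene with a peak is named, with positions for the 6 genes of highest strongest peak, which include both genes with 10 or more peaks, every catalytic gene, and up to 4 genes of each related list. RNA sequence under the peaks was not used here.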

Additional observations from a re-analysis of the deposited data

How the results depend on the processing

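The results depended mainly on the strength required of a peak. With only peaks that reached 4 on the log2 scale, 2 genes and 14 peaks remained, with a median log2 fold enrichment of 4.36, a median strongest value of 5.16 and 100% of peaks within 5 kb of the 3′ end. At a −log10 p of at least 5, 12 genes remained and the share near the 3′ end was 100%. The share was 76.6% with a window of 2 kb, against 58.8% in all coding genes, and 100% with 10 kb. For all coding genes the shares at 10 kb and at the stricter limits are not given here. Without Ppp1r16b and Ppp2r2c, an alternative chosen after seeing the data, 42 peaks remained with a median of 3.39. Of 38 recomputed values 27 stayed within 1.5 times a count or within the 95% interval of a median or share, which covers counting alone. The intervals over peaks took each peak as independent, which neighbouring peaks of a gene are not. The 27 also include settings under which every value was unchanged, so this number does not measure how firm the results are. Any overlap of 1 nt in place of the midpoint gave 19 genes and 72 peaks, as did requiring the whole peak inside the span. Merging touching peaks left 19 genes and 55 intervals, with a median log2 fold enrichment of 3.44. No paired analysis was possible because the list combines both replicates, and leaving out a replicate was not run for the same reason. Depth and reads per peak are unknown, so no counting error can be given for any peak.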

Other observations

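Many peaks of the list share exactly the same value. Of the 72 phosphatase peaks, 67 (93.1%) had a −log10 p identical to that of at least 1 other peak in the list, against 78.0% of all peaks, and 21 (29.2%) shared their log2 fold enrichment, against 21.8%. The median −log10 p was 7.20 for peaks in phosphatase genes and 10.1 for peaks in all coding genes, and the median width was 85 nt and 74 nt.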
